A study of Mus musculus with 6 samples.

Results

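Signals for B cell recruitment and survival were followed through 10 genes in bulk RNA from mouse ovarian tumors grown in wild-type (WT) or Tgm2 knockout hosts. They were taken by name from the deposited expression table, by their known roles, as the lymphoid chemokines Cxcl13, Ccl19 and Ccl21a, the chemokine receptor gene Cxcr5, the lymphotoxin genes Ltb and Lta, the ligand genes Tnfsf13b (BAFF) and Tnfsf13 (APRIL), and the receptor genes Tnfrsf13b (TACI) and Tnfrsf13c (BAFF receptor). All 10 were among the 20076 genes of the table. Primary tumors from WT and Tgm2 knockout mice were sequenced, 3 per group. WT mice were C57BL/6, the mice entered experiments at 6 to 10 weeks of age, and every host received ID8 Trp53-/- Brca1-/- cells, an ID8 mouse ovarian cancer line in which both tumor suppressor genes had been knocked out, by injection under the bursa that surrounds the ovary. Tumors were collected 6 weeks after implantation, and their RNA was enriched for polyadenylated transcripts. The deletion was in the host alone, so that Tgm2 RNA in a tumor can come from the injected cells. The knockout line was obtained from another laboratory and bred in-house, as the WT mice were. The methods do not say that the groups were littermates, so the deletion and any difference between the mouse colonies cannot be told apart.

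The labels name the samples as cancer cells, but whole tumors were extracted, and leukocyte RNA was present in all of them. Wt1, a transcription factor gene of ovarian surface and mesothelial cells, had between 13131 and 20641 normalized counts, and Laptm5, a lysosomal membrane protein gene of blood cells, had between 4461 and 11656. Values are given throughout as normalized counts, the scale on which the table was found to be, and values listed together run from tumor 1 to tumor 3 of a group. Each read was worth between 0.942 and 1.09 normalized counts, and the estimated depth lay between 33.3M and 36.9M reads per tumor. Tgm2 had 14978, 12155 and 13180 normalized counts in WT tumors, against 5853, 6071 and 8157 in knockout tumors. Every knockout tumor was below every WT tumor, although the log2 fold change of -1.02 (standard error 0.22) was not called after adjustment (limma, adjusted p = 0.391).

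B cells enter lymphoid tissue and form follicles by following CXCL13, which is made by stromal follicular cells and sensed by the receptor CXCR5, while CCL19 and CCL21 draw T cells and dendritic cells through CCR7. Lymphotoxin, a trimer of the proteins encoded by Lta and Ltb, is displayed on lymphocytes and keeps stromal cells producing these chemokines through the lymphotoxin beta receptor and the non-canonical NF-kB pathway. BAFF and APRIL are made largely by myeloid and stromal cells. BAFF sustains B cells through the BAFF receptor, plasma cells are sustained through BCMA, and both ligands bind TACI.

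None of the 10 genes was called as changed. Fold changes are differences of mean log2(value + 1), knockout minus WT, which are smaller than the true change where values are low. A call needed an adjusted p of at most 0.05 from limma and a log2 fold change of at least 1 in either direction. By that rule 0 of the 10 genes were higher, against 0.102% of the 19667 genes tested, and 0 of 10 were lower, against 0%. With the same fold limit and an unadjusted p of at most 0.05 from limma, 2 of 10 were higher (background 2.5%), namely Cxcr5 and Tnfrsf13b, and 0 of 10 were lower (background 1.55%). The higher count was 0 without WT tumor 3 or knockout tumor 3, and 1 without WT tumor 1 (Tnfrsf13b), WT tumor 2 (Tnfrsf13b) or knockout tumor 2 (Cxcr5), while without knockout tumor 1 it was 2, Cxcl13 and Tnfrsf13b. Cxcr5 and Tnfrsf13b were also the 2 genes whose knockout tumors all lay above all WT tumors, a pattern held by 5.18% of the genes tested, while 0 of 10 genes had all knockout tumors below all WT tumors, a pattern held by 5.33%. A positive fold change was found for 8 of the 10 genes, compared with 47.3% of the genes tested, and Tnfsf13 and Ccl21a had negative ones. The median log2 fold change was 0.58 over the 10 genes and -0.03 over all genes tested. The count without overlap depended on single tumors, since 5 genes were higher and 1 was lower without WT tumor 1, where 11.9% and 13.1% of all genes tested were, and 6 were higher without knockout tumor 1, where 9.63% of all genes tested were. In whole tumors, a change in the number of cells that make a transcript and a change in the amount per cell cannot be told apart.

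**Figure D1:**
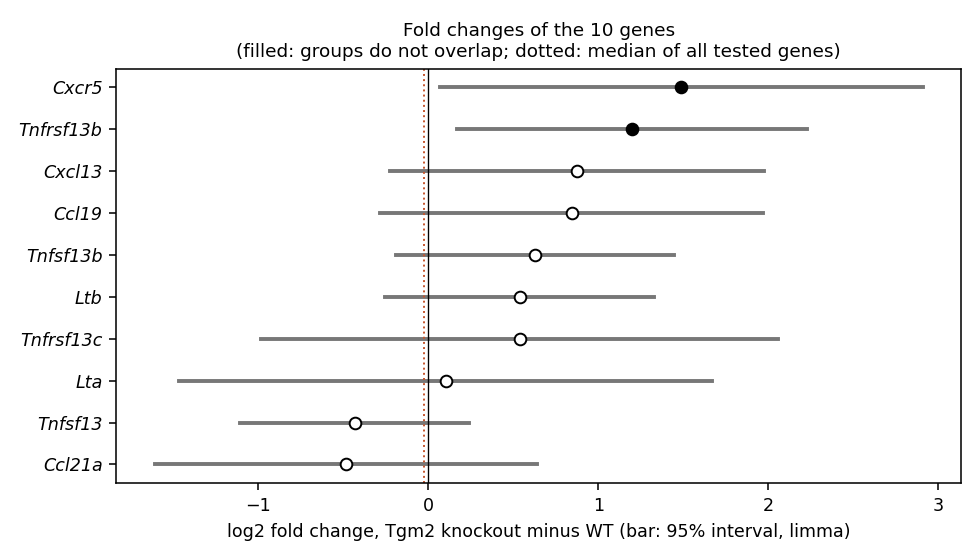
Log2 fold change (knockout minus WT) of the 10 genes, with points for the estimate and bars for the 95% confidence interval from limma, over 3 tumors per group. Only the intervals of Cxcr5 (0.07 to 2.91) and Tnfrsf13b (0.17 to 2.22) lie wholly above 0, and neither gene was called after adjustment.

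Of the chemokine genes, Cxcl13 (chr5:95956951-95961068, GRCm38, plus strand) encodes the ligand that guides B cells into follicles. It had 261, 250 and 99.5 normalized counts in WT tumors and 215, 396 and 476 in knockout tumors. Knockout tumors 2 and 3 were above all WT tumors, but knockout tumor 1 was below WT tumors 1 and 2, so the groups overlapped. The group means were 204 ± 90.2 and 362 ± 134 (SD, n = 3 each) and the log2 fold change was 0.88 (standard error 0.48, 95% interval -0.22 to 1.98, limma, adjusted p = 0.889). Without WT tumor 3 it was 0.43.

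Ccl19 (chr4:42754525-42756577, minus strand), the gene of a CCR7 ligand found in T cell zones, had 111, 51.4 and 62.6 normalized counts in WT tumors and 88.5, 174 and 136 in knockout tumors. WT tumor 1 was above knockout tumor 1 and the groups overlapped through this pair alone. The log2 fold change was 0.84 (standard error 0.49, 95% interval -0.28 to 1.97, limma, adjusted p = 0.891).

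Outside the planned tests, promoter sequences were searched for letters taken as a site of the non-canonical NF-kB pathway, and for a classical NF-kB motif. RefSeq promoter windows (GRCm38.p6), from 250 bases before to 50 bases after each start, held 10 windows for 9 of the 10 genes. For the former, the letters were GGGA, then any 2 bases, then TTTG, on either strand. They were in 1.34% of the 32851 windows in the table, and among the 10 genes in those of Cxcl13 and Ccl19. Nothing shows that these letters were chosen without these genes in view, so the matches are not support for a role of the pathway. A classical NF-kB motif was in 8.46% of windows and, among the 10 genes, in that of Ltb alone, on the strand opposite to the gene. Each sequence below is written 5′ to 3′ on the strand of its gene, ends before the transcribed part of the gene model, and has the matched letters in capitals. A match describes letters and not binding.
Cxcl13, chr5:95956770-95956889, plus strand: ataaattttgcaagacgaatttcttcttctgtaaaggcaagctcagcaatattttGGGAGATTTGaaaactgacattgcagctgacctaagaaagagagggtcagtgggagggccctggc
Ccl19, chr4:42756578-42756615, minus strand: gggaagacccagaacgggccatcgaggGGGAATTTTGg
Ltb, chr17:35194365-35194438, plus strand: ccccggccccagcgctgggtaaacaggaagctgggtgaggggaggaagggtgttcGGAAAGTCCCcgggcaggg

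Ccl21a encodes a form of the CCR7 ligand CCL21, and is found at chr4:42772860-42773993 (GRCm38, minus strand), 16283 bases from Ccl19. It measured 2506, 1035 and 2266 normalized counts in WT tumors and 2586, 1118 and 739 in knockout tumors. The highest and the lowest value were both found in knockout tumors, so the groups overlapped over the whole range. The log2 fold change was -0.49 (standard error 0.49, 95% interval -1.61 to 0.64, limma, adjusted p = 0.909). It ranged with the tumor left out from -0.99 (knockout tumor 1) to -0.087 (knockout tumor 3), and was -0.89 without WT tumor 2, -0.25 without WT tumor 1 and -0.32 without WT tumor 3.

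The value of Ccl21a has to be read with its near-identical copies. Ccl21b and Gm10591, at 42255767 to 42256432 and 42612195 to 42612860 on chromosome 4, have the same coding sequence of 402 bases, and the table lists identical values for them, so they count as 1 measurement. They differ from Ccl21a at 2 coding positions, T84A in codon 28 and C194T in codon 65, counted from 1 at the first base of the start codon, with the Ccl21a base first. Coding bases 71 to 210 from GENCODE M21 transcripts are shown 5′ to 3′ because they hold both differences, which are in capitals, and coding fragments that cover neither position cannot be told apart. The Ccl21a transcript of 870 bases also has 468 bases that the 402-base models of Ccl21b and Gm10591 lack, and fragments from these can be given only to Ccl21a among the 3 listed genes.
Ccl21a: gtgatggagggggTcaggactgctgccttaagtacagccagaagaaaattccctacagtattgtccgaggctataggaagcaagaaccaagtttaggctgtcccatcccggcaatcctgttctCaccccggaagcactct
Ccl21b: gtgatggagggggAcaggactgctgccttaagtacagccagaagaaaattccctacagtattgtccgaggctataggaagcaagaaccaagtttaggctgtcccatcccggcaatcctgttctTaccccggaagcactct

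The table gives Ccl21b 155, 6.22 and 63.0 normalized counts in WT tumors and 448, 229 and 206 in knockout tumors. All knockout tumors were above all WT tumors, and the log2 fold change of 2.74 (standard error 1.01) was not called (limma, adjusted p = 0.801). When Ccl21a, Ccl21b and Gm10591 were added together, a sum chosen after the values were seen, the totals were 2816, 1048 and 2392 normalized counts in WT tumors and 3483, 1575 and 1151 in knockout tumors. The groups overlapped in this sum, with a log2 difference of -0.05 (two-sided exact permutation test, p = 1). With 1 tumor left out this difference lay between -0.51 (knockout tumor 1) and 0.29 (knockout tumor 3), and it was -0.49 without WT tumor 2, 0.22 without WT tumor 1, 0.11 without WT tumor 3 and 0.062 without knockout tumor 2, so its sign rests on single tumors. The share of the sum listed for Ccl21b and Gm10591 was 11.0%, 1.19% and 5.27% in WT tumors and 25.8%, 29.0% and 35.8% in knockout tumors. Every knockout share was above every WT share (5.81% ± 4.92 against 30.2% ± 5.15, SD, n = 3 each), and p was 0.1 in the exact permutation test. This share sets transcripts of unequal length side by side. Scaled per kilobase of transcript, it was 21.1%, 2.54% and 10.7% in WT tumors and 42.9%, 47.0% and 54.7% in knockout tumors, again without overlap. Expression and a difference between the colonies in the copies or alleles of this locus cannot be told apart. Gm21541 and Gm13304 also have the Ccl21b coding sequence in GENCODE M21 and were not analysed here.

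**Figure D2:**
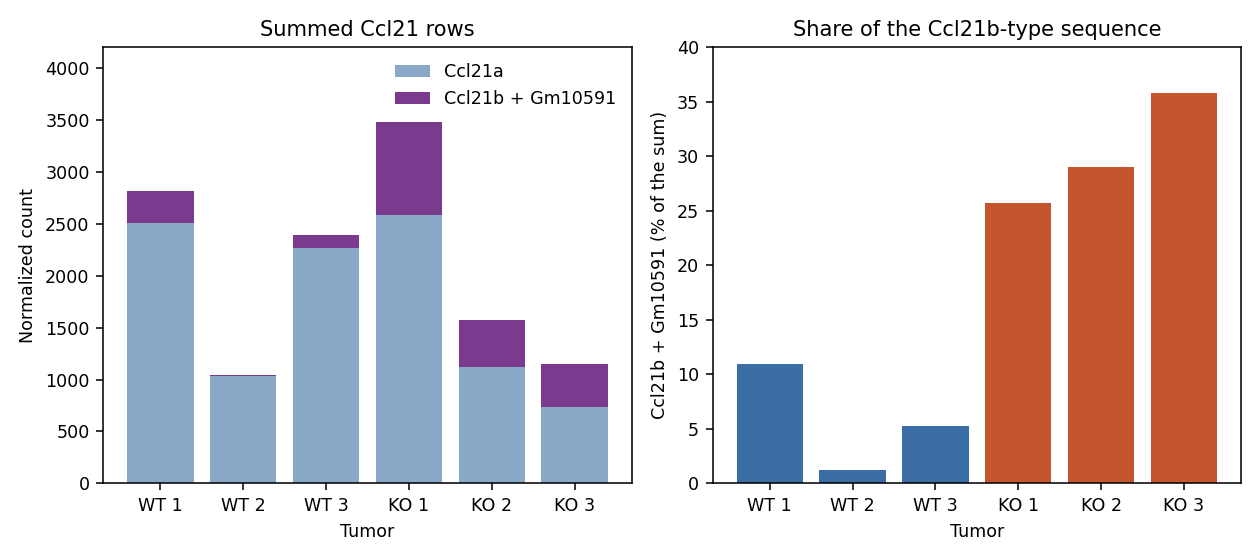
Normalized counts of Ccl21a and of its copies in each of the 6 tumors, and the share of their sum (%) listed for Ccl21b and Gm10591. The share was between 1.19% and 11.0% in WT tumors and between 25.8% and 35.8% in knockout tumors, while the sums of the groups overlapped.

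Ltb and Lta, which encode the subunits of lymphotoxin, lie 6845 bases apart on chromosome 17 of GRCm38, on either side of Tnf, Ltb at chr17:35194439-35196320 on the plus strand and Lta at chr17:35203165-35205351 on the minus strand. Ltb had 281, 289 and 202 normalized counts in WT tumors and 260, 374 and 519 in knockout tumors. Knockout tumor 1 was within the range of the WT tumors while the other knockout tumors were above it. Its log2 fold change was 0.54 (standard error 0.35, 95% interval -0.25 to 1.33, limma, adjusted p = 0.891), and 0.29 without knockout tumor 3.

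Lta was close to the limit of what the depth can measure. It measured 7.56, 12.5 and 4.06 normalized counts in WT tumors and 8.52, 7.85 and 7.56 in knockout tumors, which rest on an estimated 3.99 to 12.05 reads. The knockout values lay inside the WT range, the log2 fold change was 0.10 (standard error 0.69, limma, adjusted p = 0.986), and the 95% interval from -1.47 to 1.67 was wide, so that no difference was detectable at this depth.

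Of the survival ligands, BAFF is encoded by Tnfsf13b (chr8:10006467-10039072, plus strand). Tnfsf13b had 401, 308 and 264 normalized counts in WT tumors and 312, 704 and 550 in knockout tumors. The groups overlapped because WT tumor 1 exceeded knockout tumor 1. Its log2 fold change was 0.63 (standard error 0.36, 95% interval -0.19 to 1.45, limma, adjusted p = 0.891), with 0.37 when knockout tumor 2 and 0.96 when knockout tumor 1 was left out.

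Tnfsf13, at chr11:69682846-69685784 on the minus strand and 466 bases from Tnfsf12, the gene of the related ligand TWEAK, encodes APRIL. It had 2432, 4721 and 3862 normalized counts in WT tumors and 1982, 3254 and 2791 in knockout tumors. WT tumor 1 was below knockout tumors 2 and 3, so the groups overlapped although the lowest value came from a knockout tumor and the highest from a WT tumor. The fold change of Tnfsf13 was -0.43 on the log2 scale (standard error 0.29, 95% interval -1.11 to 0.24, limma, adjusted p = 0.891). It was -0.70 without WT tumor 1 and -0.23 without WT tumor 2 or without knockout tumor 1.

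Since BAFF and APRIL share receptors, their balance within each tumor was also taken, a measure chosen after the values were seen. The log2 value of Tnfsf13b minus that of Tnfsf13 was -2.60, -3.93 and -3.86 in WT tumors and -2.66, -2.21 and -2.34 in knockout tumors. WT tumor 1 stood with the knockout tumors, slightly above knockout tumor 1. The mean difference of 1.06 between the groups gave p = 0.2 in a two-sided exact permutation test.

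**Figure D3:**
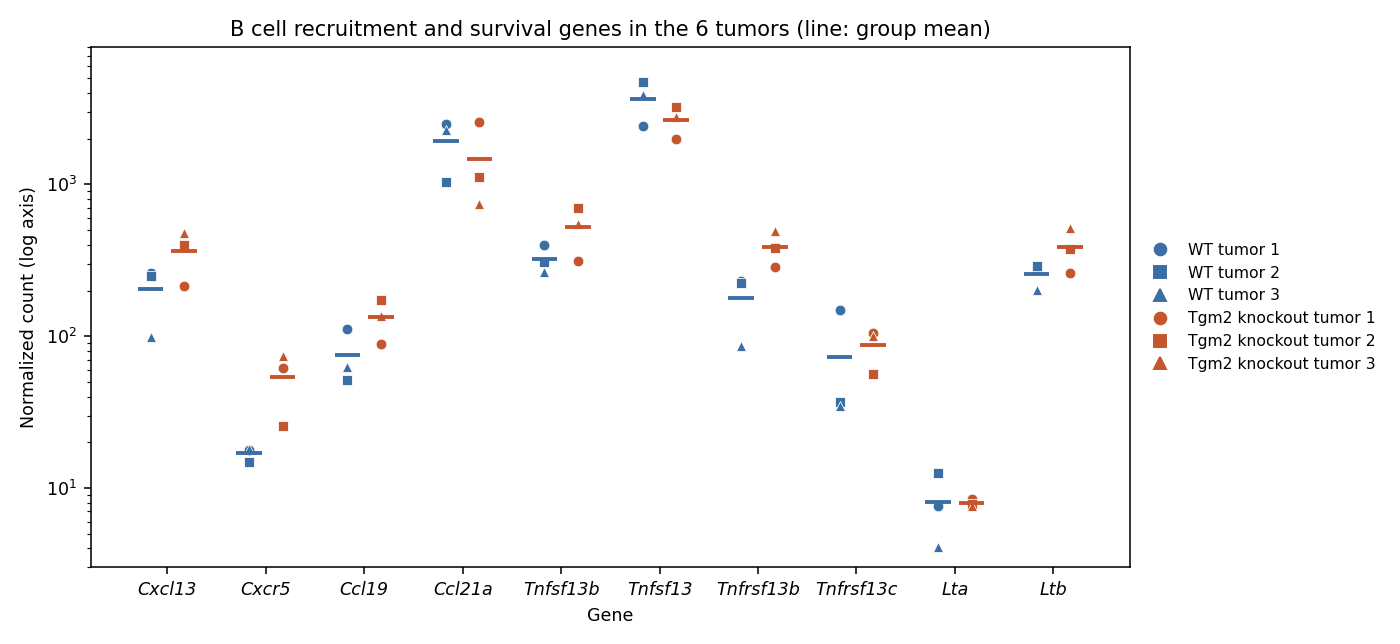
Normalized counts of the 10 genes in each tumor on a log axis, with WT and knockout tumors as separate points and the mean of each group marked. Cxcr5 and Tnfrsf13b are the genes in which the 3 knockout points lie above the 3 WT points.

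Cxcr5 (chr9:44511787-44561877, minus strand), the gene of the CXCL13 receptor of mature B cells and follicular helper T cells, had 17.9, 14.8 and 18.1 normalized counts in WT tumors and 62.1, 25.5 and 73.9 in knockout tumors. The WT tumors lay close together and all knockout tumors were above them, knockout tumor 2 by the least. The means were 16.9 ± 1.86 and 53.8 ± 25.2 (SD, n = 3 each). The log2 fold change was 1.49 (standard error 0.62, 95% interval 0.07 to 2.91, limma, adjusted p = 0.827). The two-sided exact permutation test gave p = 0.1, the smallest that 3 tumors against 3 allow. In reads, Cxcr5 rests on an estimated 14.3 to 19 in WT tumors and 26 to 67.9 in knockout tumors.

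Tnfrsf13b (chr11:61126755-61149372, plus strand) encodes TACI, a receptor for BAFF and APRIL on activated B cells and plasma cells. It had 229, 223 and 86.6 normalized counts in WT tumors and 287, 384 and 490 in knockout tumors. No knockout tumor fell within the WT range, in which WT tumor 3 was the lowest. The means were 180 ± 80.6 and 387 ± 101 (SD, n = 3 each). The log2 fold change was 1.20 (standard error 0.45, 95% interval 0.17 to 2.22, limma, adjusted p = 0.805), with p = 0.1 in the two-sided exact permutation test. Without WT tumor 3 its log2 fold change was 0.74, a value more than 1.5 times smaller.

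Tnfrsf13c (chr15:82221743-82224369, minus strand) encodes the BAFF receptor, through which BAFF sustains mature B cells. It had 148, 37.0 and 34.6 normalized counts in WT tumors and 105, 56.1 and 101 in knockout tumors. WT tumor 1 held the highest value of all, while the other WT tumors were below every knockout tumor. For Tnfrsf13c the log2 fold change was 0.54 (standard error 0.67, 95% interval -0.99 to 2.06, limma, adjusted p = 0.924). It was 1.21 without WT tumor 1, 0.22 without WT tumor 2, 0.18 without WT tumor 3 and 0.82 without knockout tumor 2.

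The receptor genes were set against the mean of a list of B cell markers, since B cells carry all of them. The mean log2 value of 16 B cell markers was 5.96, 5.35 and 5.75 in WT tumors and 6.73, 6.52 and 7.16 in knockout tumors. All knockout tumors were above all WT tumors (two-sided exact permutation test, p = 0.1). The log2 value of Cxcr5 minus this mean was -1.72, -1.37 and -1.50 in WT tumors and -0.75, -1.80 and -0.93 in knockout tumors. Relative to B cell markers Cxcr5 therefore overlapped between the groups, knockout tumor 2 being the lowest of all. The same difference for Tnfrsf13b was 1.89, 2.46 and 0.70 in WT tumors, and 1.45, 2.06 and 1.78 in knockout tumors. For Tnfrsf13c it was 1.26, -0.10 and -0.60 in WT tumors, and 0.00, -0.69 and -0.49 in knockout tumors. The knockout values of Tnfrsf13b and of Tnfrsf13c overlapped with those of the WT tumors. Knockout minus WT, these relative values differed by 0.37 for Cxcr5, 0.08 for Tnfrsf13b and -0.58 for Tnfrsf13c, and each of the 3 comparisons gave an adjusted p of 0.9 in the two-sided exact permutation test. The value of Cxcr5 was 0.17 without knockout tumor 1 and 0.69 without knockout tumor 2. That of Tnfrsf13c was -0.041 without WT tumor 1 and -0.97 without WT tumor 3, and that of Tnfrsf13b was -0.41 without WT tumor 3. Part of the B cell marker mean comes from Spib, the marker with the highest normalized count of the list (not scaled for length, as for the highest gene of each list named), which plasmacytoid dendritic and epithelial cells also express. Some of the markers are also among the follicular dendritic and reticular cell genes below. The markers did not change alike, with log2 fold changes from -0.67 (Spib) to 2.85 (Fcrla) and 3.01 (Cd79a) and a median of 0.81. The relative values therefore depend on the markers taken.

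**Figure D4:**
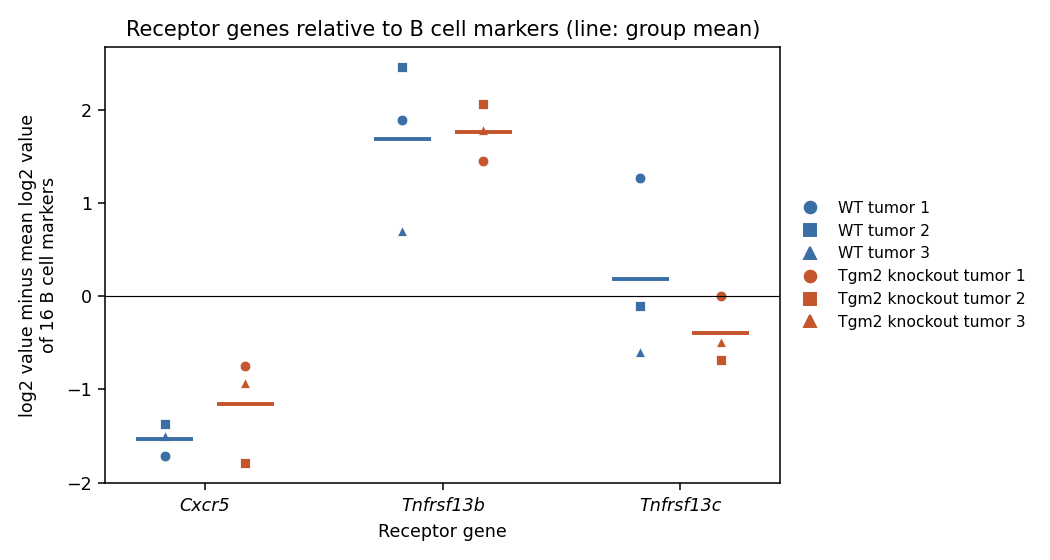
Log2 values of Cxcr5, Tnfrsf13b and Tnfrsf13c minus the mean log2 value of 16 B cell markers in each of the 6 tumors. The groups overlap for all 3 receptor genes.

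Across tumors, no single tumor was highest or lowest for all 10 genes. Knockout tumor 3 had the highest value for 4 genes and the lowest for 1, Ccl21a. WT tumor 3 had the lowest value for 6 genes and the highest for none. Knockout tumor 1 was highest for Ccl21a and lowest for Tnfsf13.

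To set the 10 genes in order of level, values were divided by transcript length. Per kilobase of the longest GENCODE M21 transcript, averaged over the 6 tumors, Tnfsf13 (2112 normalized counts per kilobase) and Ccl21a (1964) stood at the top. Cxcl13 (246), Ltb (226), Ccl19 (134), Tnfrsf13b (111) and Tnfsf13b (88.7) followed. Tnfrsf13c (40.5), Cxcr5 (12.4) and Lta (5.79) were the lowest on this scale. Only the step from Ccl21a to Cxcl13 separated neighbours in this order whose ranges did not overlap. By group means, Ltb (182) was above Cxcl13 (177) in WT tumors and below it in knockout tumors (271 against 315). Cxcr5 and Lta were close in WT tumors (5.95 and 5.81) and further apart in knockout tumors (18.9 and 5.77). Transcripts shorter than the longest would raise the values of a gene on this scale.

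Genes whose profile over the 6 tumors was nearest to that of each member were found by the Euclidean distance between centred log2 values, among 16736 genes with a mean of at least 10. Near to Cxcl13 were Klrk1 (distance 0.28), the gene of a natural killer cell receptor, Gm12250 (0.35) and Cytip (0.38). Tnfsf13b had Ccr2 (0.18), the chemokine receptor gene of monocytes, and Marchf1 (0.23). Ltb had Tgtp2 (0.21), Rab7b (0.22) and Glrx (0.26), while Tnfrsf13b had Igtp (0.35) and Ptprcap (0.52). Igtp and Tgtp2 encode interferon-inducible GTPases. Ccl19 had Cd37 (0.30), a tetraspanin gene of leukocytes, Slc9a9 (0.32) and Gng2 (0.33). For Cxcr5 the nearest was Gm29797 (0.50) and for Ccl21a it was Adam11 (0.50), so these profiles had no match as near as those of Tnfsf13, whose nearest was A430005L14Rik (0.12). With 6 tumors these distances are descriptions only.

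Other genes of the same pathways were also uncalled. For the counts without overlap in this and the following lists, 5.18% of all genes tested were higher and 5.33% lower. Counts near these shares are not a result about a list. Of 17 further genes of the lymphoid chemokine axis, 0 were called in either direction, 2 were without overlap and higher (Ccl21b and Ackr3), and the median log2 fold change was 0.30. Ackr3, a scavenging receptor gene for CXCL12, had 468, 654 and 386 normalized counts in WT tumors and 1001, 1039 and 966 in knockout tumors (log2 fold change 1.03, limma, adjusted p = 0.542). Cxcl12, the ligand gene with the highest normalized count of the axis, had a log2 fold change of 0.03.

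Of 16 genes of the lymphotoxin axis and non-canonical NF-kB, 0 were called, 13 had negative fold changes and the median was -0.09. Tnfsf11, the gene of RANK ligand, was higher without overlap, with 28.4, 36.5 and 17.2 normalized counts in WT tumors and 44.5, 40.2 and 68.9 in knockout tumors (log2 fold change 0.90, limma, adjusted p = 0.891). Tnf was the 1 gene of this list that was lower without overlap.

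Of 26 tested genes of the BAFF and APRIL axis and B cell survival, 0 were called, 2 were higher without overlap and the median log2 fold change was 0.15. These 2 genes were Tnfrsf17 and Il21. Tnfrsf17 encodes BCMA, the APRIL receptor of plasma cells, and had 1.88, 7.26 and 7.12 normalized counts in WT tumors and 20.8, 16.7 and 52.2 in knockout tumors. All knockout tumors were above all WT tumors, and the log2 fold change was 2.24 (standard error 0.77, limma, adjusted p = 0.759). Il21, the gene of a cytokine of follicular helper T cells, was listed at 0 in WT tumors 1 and 2 and at 0.958 in WT tumor 3, against 3.91, 7.43 and 11.2 in knockout tumors, which are a few reads each. It passed the filter on low values through the knockout tumors alone, so its place in these counts is not support for a difference, and Tnfrsf17 is the gene without overlap that remains in this list.

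Markers of the cell types that carry or answer these signals were counted in the same way, against the same shares. Of the 16 B cell markers, 14 had positive fold changes, 9 were higher without overlap and the median was 0.81. Cd79a, a subunit gene of the B cell receptor, rose (log2 fold change 3.01, limma, adjusted p = 0.0264). It had 114, 91.6 and 74.1 normalized counts in WT tumors and 686, 593 and 1022 in knockout tumors. The call was lost when any 1 tumor was left out (limma, adjusted p between 0.0638 and 0.161), at log2 fold changes between 2.78 and 3.17. Cd79a was the 1 B cell marker called. Spib, the highest, had a log2 fold change of -0.67, which was -0.40 without knockout tumor 2 and 0.21 with the white adipocyte covariate described further on. The B cell markers summed to 2363, 1455 and 1767 in WT tumors and, on the same scale of normalized counts, to 2877, 2780 and 4048 in knockout tumors, and none of the list was at 0 in any tumor.

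Of 11 plasma cell markers, 3 were called as higher (Jchain, Mzb1 and Pou2af1), 9 were higher without overlap and the median log2 fold change was 2.47. Jchain, which joins polymeric antibodies and was the highest of the list, rose by 4.80 on the log2 scale (limma, adjusted p = 0.000989). It stayed called when any 1 tumor was left out. With the white adipocyte covariate described further on, its log2 fold change was 4.24 and the call was lost (limma, adjusted p = 0.284). This covariate did not overlap between the groups. The call of Mzb1 (log2 fold change 4.27) was lost without WT tumor 2 (4.16, limma, adjusted p = 0.0692). That of Pou2af1 (3.76) was lost without any tumor but WT tumor 3 (3.28 to 3.90, limma, adjusted p between 0.0879 and 0.222). Both calls were lost with that covariate (limma, adjusted p = 0.44 each), where the log2 fold changes were 4.24 for Mzb1 and 4.48 for Pou2af1. Without a variance trend both calls were also lost (limma, adjusted p of 0.063 and 0.158), at unchanged fold changes. The plasma cell markers, of which Tnfrsf17 is 1, summed to 16146, 18188 and 13383 in WT tumors and, in normalized counts, to 60783, 83670 and 88066 in knockout tumors. The part of B cell content in the values of Cxcr5 and Tnfrsf13b was not tested beyond the comparison with B cell markers above. Tnfrsf17 was not set against B cell markers. The part of plasma cell content was not tested for any of these genes.

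T cells carry Ltb and Lta as well as the receptor for Ccl19 and Ccl21. All 16 T cell markers had positive fold changes and 5 were without overlap, with a median of 0.88 and 0 called. Their summed normalized counts were 3006, 1876 and 1785 in WT tumors and 3008, 3423 and 5591 in knockout tumors, Trac being the highest. Of 10 T follicular helper genes, 0 were called, 9 had positive fold changes and the median was 1.11, with 4 higher without overlap. Il21 adds to these values, with the limit given above. Btla, an inhibitory receptor gene, was without overlap, with a log2 fold change of 1.50 (limma, adjusted p = 0.67). The part of T cell content in the values of Cxcr5 and Ltb was not tested.

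Markers of the stromal cells that make Cxcl13, Ccl19 and Ccl21a showed no common direction. Of 13 follicular dendritic and reticular cell genes, 0 were called, 1 was higher without overlap (Coch, log2 fold change 2.57) and 1 was lower without overlap (Icam1, -0.67), with a median of -0.18. The 12 high endothelial venule genes had 0 called, a median of 0.19, and 2 higher without overlap. Glycam1, a mucin of these vessels, had 11.7, 0.993 and 0.978 normalized counts in WT tumors and 26.2, 8.41 and 17.9 in knockout tumors, so that the groups overlapped at levels of few reads. Of 9 lymphatic endothelium markers, which include Ccl21a, 0 were called and 1 was higher without overlap, Lyve1, with a log2 fold change of 1.31 (limma, adjusted p = 0.566).

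Among the myeloid lists, whose cells are a source of BAFF and APRIL, 0 genes were called. The median log2 fold change was 0.50 over 14 macrophage and monocyte markers, 0.69 over 11 dendritic cell markers and -0.35 over 10 neutrophil markers, with 2, 5 and 1 higher without overlap. Over 12 general leukocyte genes the median was 0.53 with 0 called, and over 14 tested ovarian and mesothelial cell markers it was 0.02 with 0 called. The general leukocyte genes summed to 36889, 25940 and 21601 in WT tumors and, in normalized counts, to 26175, 44604 and 49819 in knockout tumors, so that knockout tumor 1 was within the WT range for leukocyte genes as it was for Cxcl13, Ltb and Tnfsf13b.

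Of the white adipocyte markers 1 of 20 was called, and their part in the member values was not tested beyond a fit with them as a covariate. All 20 had positive fold changes, with a median of 1.64, 11 higher without overlap, and Lep, the leptin gene, as the marker called. The call of Lep (log2 fold change 3.74) was lost when any 1 tumor was left out (3.35 to 3.96, limma, adjusted p between 0.0533 and 0.284). The 20 markers summed to 58142, 74733 and 46982 in WT tumors and, in normalized counts, to 69706, 260585 and 154028 in knockout tumors, Lpl being the highest. The mean log2 value of these markers was 9.03, 9.72 and 9.10 in WT tumors and 10.3, 11.9 and 10.9 in knockout tumors. All knockout tumors were above all WT tumors in this mean, so as a covariate it cannot be told apart from genotype. With this mean as a covariate in limma, the log2 fold change of Cxcl13 became -0.028, that of Tnfsf13b -0.29 and that of Ccl21a 0.94. The same covariate gave 0.085 for Ltb, 0.37 for Ccl19, -1.34 for Tnfsf13, 1.87 for Tnfrsf13c, 2.82 for Cxcr5 and 0.66 for Tnfrsf13b, and left all 10 genes uncalled.

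**Figure D5:**
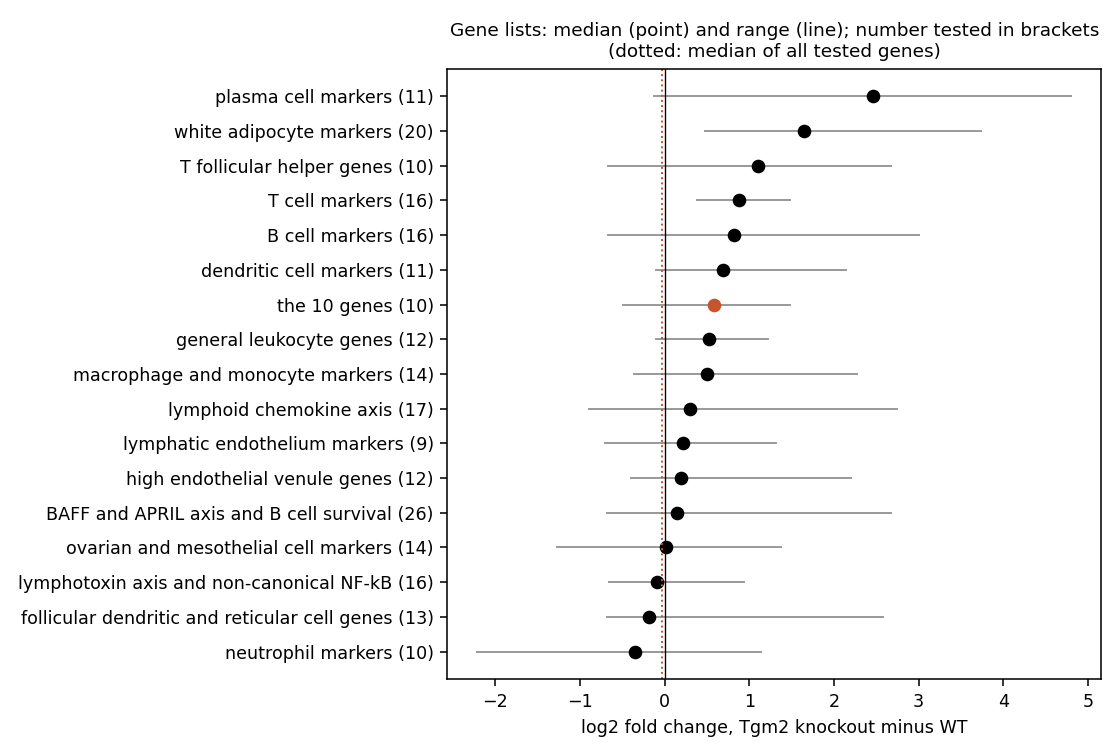
Median log2 fold change (knockout minus WT) of the 10 genes and of each list of pathway or cell type genes, with the range over the genes tested in each list. The medians were highest for plasma cell markers (2.47) and white adipocyte markers (1.64), and 0.58 for the 10 genes.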

How the data were processed

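Orthotopic tumors were assigned to WT (n = 3) or TGM2_KO (n = 3) by their genotype labels, and each table column was matched to 1 tumor by group and replicate number. According to the submitters' processing notes and the methods, the authors sequenced paired reads, quantified them with kallisto 0.46.2 (GRCm38), summed transcripts to genes through biomaRt, filtered low genes by a limit not given in the sources used here, and normalized with DESeq2 size factors. The table is labelled TPM, but the deposited values behave as normalized estimated counts, a signal with no fixed total: columns sum to between 32316613 and 37717165, and recomputed size factors were 1.0018 in all 6. The chosen test suits either scale. No count model was used, since whole reads were recovered for single-transcript genes alone (94.7% to 99.1% of low values within 0.1 reads).

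R 4.3.3 with limma 3.58.1 (variance trend, no covariate, two-sided, Benjamini-Hochberg) was applied to log2(value + 1) for 19667 genes with at least 1 in at least 3 tumors, and was tested on simulated data. Python 3.11.15 gave exact permutation tests, which cannot go below p = 0.1 with 3 tumors against 3. Nothing says that the tumors of a group came from separate mice, since injections were bilateral, so p-values measure the spread between these tumors alone. Of the symbols, 94.8% matched 1 GENCODE M21 gene on GRCm38. The 10 genes and the lists were chosen with earlier results of these data known. Genes named are Tgm2, the 10 genes, from each other list those called, the 2 of smallest p and the gene of highest mean, and for each of the 10 genes with a mean of at least 10 the 3 nearest profiles (some of these are not reported here); Tnf and Gm10591 were named after their values were seen. Alternatives changed the pseudocount, filter, scaling, variance trend, tumor weights, thresholds and covariate, used a replicate block, and left out each tumor.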

Additional observations from a re-analysis of the deposited data

How the results depend on the processing

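All 10 genes stayed uncalled under every alternative that adjusted p over all genes. At an unadjusted p of 0.05, 491 genes were higher and 305 lower, 2 of the 10 genes among the former; with the white adipocyte covariate 848 were higher and 821 lower at that threshold, and without knockout tumor 1 475 and 602, while the lower count was 144 without WT tumor 3, 176 without knockout tumor 3 and 173 with a filter of at least 10. Genes called as higher numbered 20, but 4 without a variance trend, 1 with the white adipocyte covariate, and between 2 and 14 with 1 tumor left out (7, 2 and 13 without WT tumors 1 to 3, and 11, 11 and 14 without knockout tumors 1 to 3); called lower were 0 to 1. Of the 10 genes, 2 to 6 were higher and 0 to 1 lower without overlap when 1 tumor was left out, against 8.91% to 11.9% and 7.74% to 13.1% of all genes tested. With replicate numbers as a replicate block, 5 genes were called as higher, none of the 10; deviations of same-numbered tumors correlated at -0.20, 0.28 and -0.31, so the numbers were not taken to pair the tumors.

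The white adipocyte covariate turned the log2 fold changes of Cxcl13 (-0.028), Tnfsf13b (-0.29), Lta (-0.28), Ccl21a (0.94), Cxcl12 (-1.15), Chuk (0.070), Tnfrsf1a (-0.21), Spib (0.21), Maf (-0.27), Enpp2 (0.15), Lyz2 (-1.46) and Lpl (-0.34), and array weights those of Lta (-0.030) and Cxcl12 (-0.064). With 1 tumor left out, values crossed 0 for Lta (-0.26 to 0.45), Cxcl12 (-0.34 to 0.32), Tnfrsf1a (-0.061 to 0.29), Clu (-0.53 to 0.046), Pdpn (-0.47 to 0.043), Wt1 (-0.035 to 0.24), Lyz2 (-0.22 to 0.76) and Ltf (-4.21 to 0.078). Tnfrsf13b relative to B cell markers was -0.0076 with the median of the markers, and lay between -0.41 (WT tumor 3 left out) and 0.47 (WT tumor 2 left out). The cause of these turns was not tested. Calls were ended by the covariate for Cd79a, Jchain, Mzb1, Pou2af1 and Lep, and without a variance trend for all of these but Jchain. With the covariate their log2 fold changes were 3.32, 4.24, 4.24, 4.48 and 3.105, against 3.01, 4.80, 4.27, 3.76 and 3.74 in the main fit. The covariate did not overlap between the groups, so a call lost with it does not test the part of adipocyte content. The replicate block ended the calls of Cd79a, Pou2af1 and Lep. It left their fold changes as in the main fit, as did leaving out the variance trend. Quantile normalization ended the calls of Cd79a (2.96) and Lep (3.71), and a pseudocount of 5 those of Pou2af1 (3.67) and Lep (3.58). Over all alternatives Cxcr5 lay between 1.20 and 2.82 and Tnfrsf13b between 0.66 and 1.44, with an unadjusted p of at most 0.05 from limma in 9 and 10 of 16. Depth limits Lta, which a filter of at least 10 removed.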
